A study of Mus musculus with 18 samples.

Results

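CD103 dendritic cells (DCs) and CD11b CD64 macrophages of the mouse small intestine were compared in the cells that carried no green fluorescent protein (GFP). The members are the 6 arrays whose titles name the GFP-minus CD103 gate (3 arrays) or the GFP-minus CD11b CD64 gate (3 arrays), out of 18 arrays in the series. All mice were of the VDTR strain, known as a transgenic line in which the villin promoter drives a diphtheria toxin receptor fused to GFP in intestinal epithelial cells, so that GFP in a phagocyte marks epithelial material it holds. All groups were given 2 ng per kg of diphtheria toxin by intraperitoneal injection and were sampled 4 h later, from animals labelled male/female and of unstated age. There was no untreated group among these arrays.

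The DCs were sorted as live CD45+ CD11c+ MHCII+ CD103+ CD24+ GFP- cells, and the macrophages as live CD45+ CD11c+ MHCII+ CD11b+ CD64+ GFP- cells. RNA from the sorted cells was amplified from 1 ng with the NuGEN WT Ovation Pico kit before labelling. An "n value" of 4 stands in the labels without explanation. Nothing in the labels ties the 3 arrays of a group to separate mice, so the spread behind each p-value may be technical. That spread within groups was pooled over all 18 arrays, not taken from the compared DC and macrophage arrays alone. A p-value therefore does not measure the spread of the array values printed beside it. The array values are log2 signals from which the probe's own median across the 18 arrays was taken off, so 0 is that median and the absolute level is unknown. Most of the 18 arrays are of CD11b CD64 gates, with or without CD103. A gene expressed alike in those macrophages therefore reads near 0 in them by construction. Each difference below is DCs minus macrophages on that log2 scale, with the standard error (SE) of a limma fit to all 18 arrays. A gene passed at a Benjamini-Hochberg adjusted p under 0.05.

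Intestinal CD103 DCs take up antigen in the lamina propria and carry it to lymph nodes to prime T cells. Those without CD11b belong to the type 1 conventional lineage, which depends on the growth factor receptor Flt3 and on the transcription factors Irf8 and Batf3, and which presents antigen from dead cells on MHC class I. Resident macrophages of the gut wall depend on the receptor Csf1r, stay in the tissue, clear apoptotic cells and microbes, and are known for complement, Fc receptor and interleukin 10 expression.

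The genes of the sorted proteins followed the gates. Itgae, which encodes CD103, read 5.56, 5.56 and 5.28 on the DC arrays and -0.53, -0.39 and -0.05 on the macrophage arrays. Cd24a read 4.57, 4.51 and 4.64 in DCs against -1.26, -0.54 and 0.24 in macrophages. The CD11b gene Itgam read -4.56, -3.79 and -3.78 in DCs against -0.17, 0.03 and 0.40 in macrophages. Fcgr1, which encodes CD64, ran the same way as Itgam, with -5.10, -4.16 and -4.29 in DCs and 0.06, 0.28 and 0.09 in macrophages. These 4 genes were chosen by the gate, and no array went against its label. Genes of proteins required in both gates were close: the difference was -0.11 ± 0.32 (SE) for Itgax, the CD11c gene, 0.43 ± 0.30 for Ptprc, the CD45 gene, and -0.04 ± 0.09 for the MHC class II gene H2-Ab1, none of which passed.

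Of 22180 genes tested, 731 passed (3.30%): 309 were higher in DCs (1.39%) and 422 were higher in macrophages (1.90%). The median difference over all genes was -0.03, against 2.14 among the genes that passed as higher in DCs and -2.52 among those higher in macrophages. A difference of at least 2 on the log2 scale (4-fold) was reached by 167 of the genes higher in DCs and 286 of those higher in macrophages, and a difference of at least 4 (16-fold) by 32 and 59. In 730 of the 731 genes the 3 DC arrays lay wholly on one side of the 3 macrophage arrays, which held for 18.8% of all genes tested; the exception was Il1a. Where a call is said below to be lost without single arrays, a refit to the 6 arrays alone, quantile normalization or another setting could end it as well. Because these are bulk samples, fewer cells of a type and less RNA per cell cannot be told apart.

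**Figure D1:**
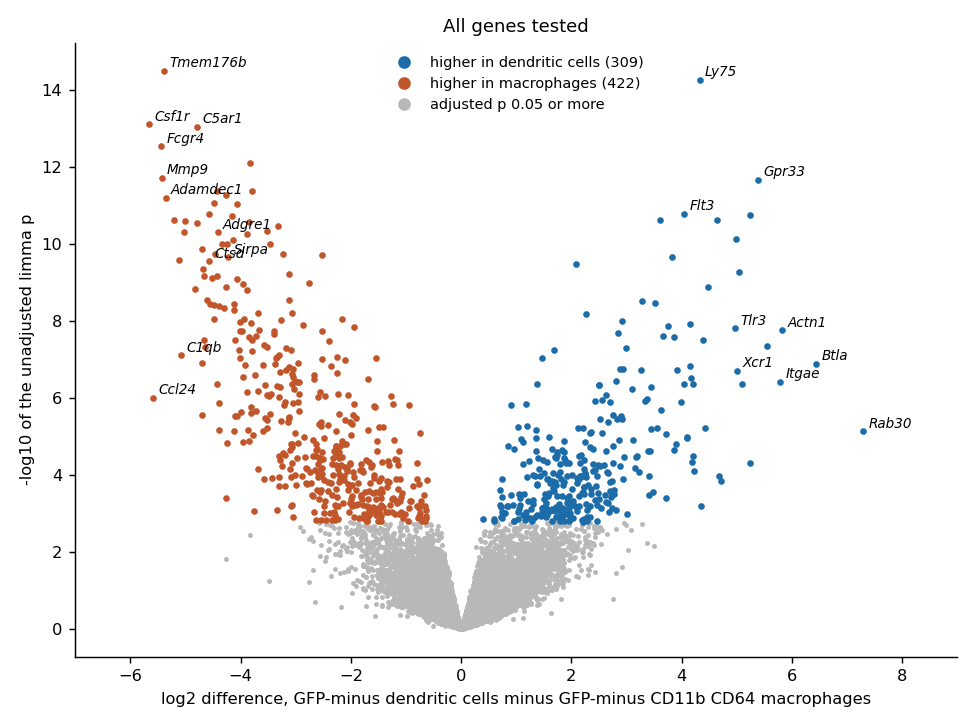
Difference in log2 signal between GFP-minus DCs and GFP-minus CD11b CD64 macrophages (horizontal axis) against -log10 of the unadjusted limma p (vertical axis), 1 point per gene for 22180 genes. The 309 genes that passed as higher in DCs lie to the right, with Rab30 farthest out at 7.29, and the 422 higher in macrophages to the left, with Csf1r farthest out at -5.65.

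Of 18 measured markers of the type 1 DC lineage, 10 passed as higher in DCs, the other 8 did not pass, and all 18 differences were above 0 with a median of 1.78. The chemokine receptor gene Xcr1, which guides these cells towards lymphocytes that secrete its ligand, read 5.23, 4.49 and 4.86 in DCs and -0.66, 1.10 and -0.87 in macrophages. Its difference was 5.01 ± 0.53 (32.1-fold, adjusted p = 3.24e-05). Btla, an inhibitory receptor of the immunoglobulin superfamily, read 6.56, 6.11 and 6.29 in DCs and -0.34, 0.08 and -0.11 in macrophages, a difference of 6.44 ± 0.66 (87.0-fold, adjusted p = 2.35e-05). Both genes were high on each DC array and near or below the median on the macrophage arrays, apart from macrophage replicate 2 for Xcr1.

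Endosomal sensors and genes of cross-presentation were among these markers. Tlr3, the sensor of double-stranded RNA, was 4.29, 3.90 and 4.04 in DCs and -1.28, -1.09 and -0.32 in macrophages, a difference of 4.97 ± 0.43 (adjusted p = 4.22e-06). Wdfy4, which is needed to cross-present antigen from cells, was higher in DCs by 4.10 ± 0.61 (adjusted p = 0.000881). Tlr11, the receptor for profilin of apicomplexan parasites, was higher in DCs by 3.86 ± 0.62 (adjusted p = 0.00167), Naaa, a lysosomal amidase, by 4.04 ± 0.46 (adjusted p = 6.23e-05), and Cd8a, the T cell coreceptor chain that many type 1 DCs also carry, by 2.82 ± 0.38 (adjusted p = 0.000355). The DC arrays lay above all macrophage arrays for each of these 5 genes.

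The transcription factors of the lineage were split. Irf8 read 1.35, 1.43 and 1.30 in DCs and -0.22, -0.54 and -0.20 in macrophages and was higher in DCs by 1.68 ± 0.16 (3.20-fold, adjusted p = 1.19e-05). Batf3 read 0.59, 0.82 and 0.07 in DCs and 0.11, 0.51 and -0.28 in macrophages, groups that overlap, with a difference of 0.38 ± 0.44 (adjusted p = 0.834). Id2, a helix-loop-helix inhibitor needed by the same lineage, differed by 0.36 ± 0.27 (adjusted p = 0.676), and the adhesion molecule Cadm1 by 1.88 ± 0.54 (adjusted p = 0.0891). Neither Batf3 nor Id2 separated the populations on these arrays.

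Of 24 measured genes shared by conventional DCs, 9 were higher in DCs and 15 did not pass, with a median of 0.88. The largest difference among them, 7.29 for Rab30, is described below. Flt3, the receptor on which DC development depends, read 3.73, 3.94 and 4.09 in DCs and -0.33, 0.06 and -0.09 in macrophages, a difference of 4.04 ± 0.21 (16.4-fold, adjusted p = 2.26e-08). P2ry10, a lysophospholipid receptor, was higher by 3.54 ± 0.50 (adjusted p = 0.000557), Ap1s3, a subunit of a clathrin adaptor, by 3.43 ± 0.56 (adjusted p = 0.00175), and Hmgn3, a nucleosome-binding protein, by 2.26 ± 0.18 (adjusted p = 2.06e-06). Kit, the stem cell factor receptor, was higher by 2.81 ± 0.66 (adjusted p = 0.0287), a call lost without any 1 of the 3 DC arrays or without macrophage replicate 1 or 2. Zbtb46, the zinc finger factor that marks conventional DCs, read 0.40, 0.15 and -0.61 in DCs and 0.02, -0.51 and 0.33 in macrophages and differed by 0.04 ± 0.61 (adjusted p = 0.993). Dpp4, which encodes the peptidase CD26, differed by 1.23 ± 0.58 (adjusted p = 0.388) and Bcl11a by 0.17 ± 0.14 (adjusted p = 0.719).

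Markers of type 2 DCs gave no difference towards the DCs: of 11 measured, 3 were higher in macrophages and 8 did not pass, with a median of -0.06. Sirpa, the receptor for CD47 that macrophages share with type 2 DCs, read -4.43, -3.88 and -4.76 in DCs and -0.39, -0.09 and 0.09 in macrophages, a difference of -4.22 ± 0.27 (adjusted p = 1.22e-07). The lectin genes Mgl2 at -3.06 ± 0.70 (adjusted p = 0.0233) and Cd209a at -1.45 ± 0.31 (adjusted p = 0.0162) were the others. The Mgl2 call was lost without DC replicate 2 or 3 or without any 1 macrophage array, and that of Cd209a without DC replicate 1 or macrophage replicate 1 or 2. Irf4, the factor of the type 2 lineage, differed by -0.75 ± 0.41 (adjusted p = 0.494).

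**Figure D2:**
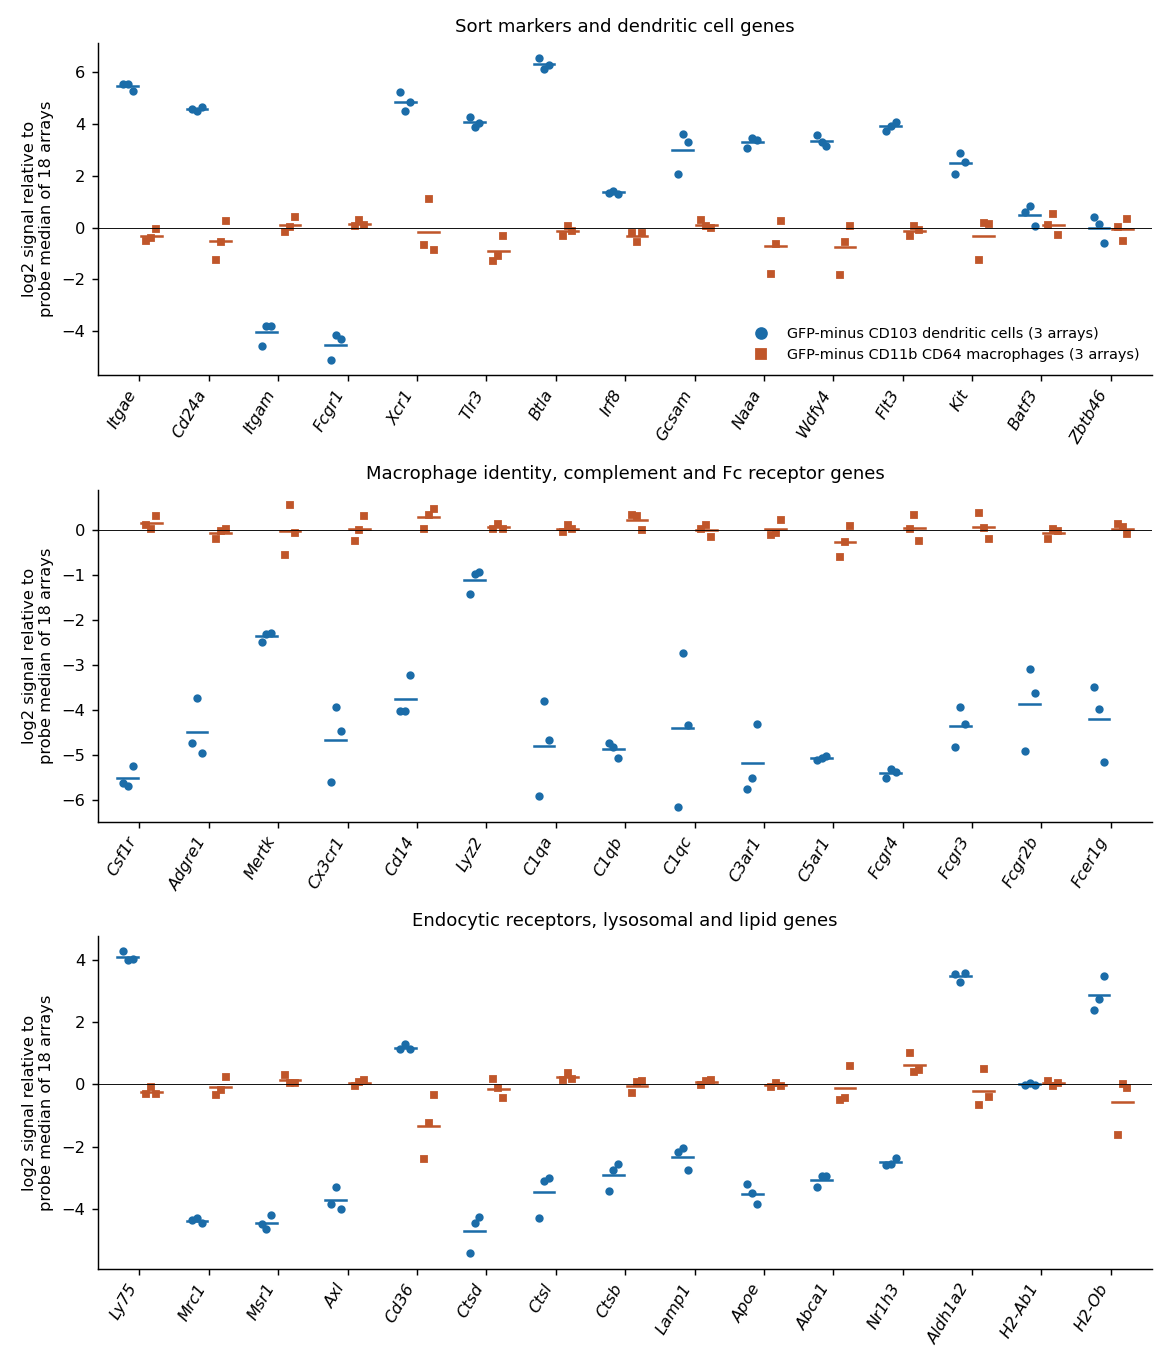
Signal of single genes on each of the 6 GFP-minus arrays, as log2 relative to the probe's median over 18 arrays (vertical axes), with DC arrays as circles, macrophage arrays as squares and group means as bars. Irf8 separates the groups with DC values of 1.30 to 1.43, Batf3, Zbtb46 and H2-Ab1 do not, and Fcgr4, C5ar1 and C1qb lie at or below -4.72 on all DC arrays and near 0 on all macrophage arrays.

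Macrophage core genes were higher in the CD64 cells: of 26 measured, 16 passed as higher in macrophages and 10 did not pass, with a median of -2.27. Csf1r, the receptor for the macrophage growth factor, read -5.61, -5.68 and -5.23 in DCs and 0.11, 0.02 and 0.31 in macrophages. It was 50.4-fold higher in macrophages, a difference of -5.65 ± 0.20 (adjusted p = 4.89e-10). Adgre1, an adhesion receptor used to define mouse macrophages, was 21.3-fold higher in macrophages (-4.41 ± 0.25, adjusted p = 3.94e-08), the fractalkine receptor Cx3cr1 25.7-fold (-4.69 ± 0.31, adjusted p = 2.29e-07) and Cd14, the endotoxin coreceptor, 16.2-fold (-4.02 ± 0.39, adjusted p = 1.16e-05). On each of these genes the highest DC array stayed more than 3 log2 units below the lowest macrophage array.

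Smaller differences were found for 3 other genes of this list. Mertk, a receptor for apoptotic cells, read -2.49, -2.30 and -2.29 in DCs and -0.56, 0.56 and -0.06 in macrophages, a difference of -2.34 ± 0.41 (adjusted p = 0.00324) that did not pass after quantile normalization. Lyz2, the lysozyme of myeloid cells, was 2.25-fold higher in macrophages (-1.17 ± 0.20, adjusted p = 0.00273). Its relative Lyz1, the lysozyme of Paneth cells, was 11.5-fold higher (-3.52 ± 0.50, adjusted p = 0.000579), and signal from 2 genes so alike may not be separable on an array. The endosomal protein gene Cd68 read -0.56, -1.18 and -0.83 in DCs and -0.05, -0.07 and 0.09 in macrophages, without overlap, and did not pass (-0.84 ± 0.24, adjusted p = 0.0883).

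Genes described in resident gut macrophages gave 15 of 27 measured as higher in macrophages and 12 that did not pass, with a median of -2.61. Mrc1, the mannose receptor, read -4.35, -4.29 and -4.46 in DCs and -0.34, -0.17 and 0.22 in macrophages, a difference of -4.27 ± 0.20 (adjusted p = 1.05e-08). The decysin metalloprotease Adamdec1 differed by -5.36 ± 0.26 (41.0-fold, adjusted p = 1.15e-08), Stab1, a scavenger receptor of tissue macrophages, by -3.07 ± 0.25 (adjusted p = 2.06e-06) and Igf1, insulin-like growth factor 1, by -2.27 ± 0.33 (adjusted p = 0.000644). Interleukin 10 RNA was among them: Il10 read -3.95, -3.61 and -3.90 in DCs and -0.05, 1.07 and -0.72 in macrophages, 15.1-fold higher in the latter (adjusted p = 2.49e-05). Timd4, a phosphatidylserine receptor of long-lived resident macrophages, read -2.23, 1.37 and 0.10 in DCs and -2.63, -0.54 and -0.10 in macrophages, so its groups overlapped (0.83 ± 0.90, adjusted p = 0.813).

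Complement genes divided the populations in one direction, with 9 of 22 measured higher in macrophages, 13 that did not pass and a median of -0.48. All 3 chains of C1q, which starts the classical pathway, were higher in macrophages. C1qa read -5.90, -3.79 and -4.67 in DCs and -0.04, 0.11 and 0.02 in macrophages (28.2-fold, adjusted p = 5.87e-07). C1qb read -4.72, -4.82 and -5.07 in DCs and 0.33, 0.30 and 0.00 in macrophages (33.8-fold, adjusted p = 1.57e-05). C1qc spread most among DCs, at -6.14, -2.73 and -4.33, against 0.02, 0.11 and -0.16 in macrophages (21.0-fold, adjusted p = 0.000156), and did not pass when only the 6 arrays were fitted. For all 3 chains the macrophage arrays lay within 0.33 of the median and the DC arrays lay far below it, a position that the centring favours.

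The receptors for the complement fragments C3a and C5a were higher in macrophages too. C5ar1 read -5.11, -5.07 and -5.01 in DCs and -0.60, -0.28 and 0.09 in macrophages (27.8-fold, -4.80 ± 0.17, adjusted p = 4.89e-10), and C3ar1 was 36.8-fold higher (-5.20 ± 0.28, adjusted p = 2.46e-08). Cfb, factor B of the alternative pathway, differed by -4.25 ± 0.25 (adjusted p = 6.59e-08), C6, a component of the membrane attack complex, by -3.89 ± 0.22 (adjusted p = 4.13e-08), and properdin, Cfp, by -1.83 ± 0.33 (adjusted p = 0.00424), which did not pass without the 4 arrays of lowest weight.

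Fc receptors bind antibody and its immune complexes: of 14 receptor genes and chains, 6 were higher in macrophages and 8 did not pass, with a median of -0.75. Fcgr4 read -5.51, -5.30 and -5.38 in DCs and 0.03, 0.33 and -0.24 in macrophages (43.4-fold, -5.44 ± 0.21, adjusted p = 1.28e-09). The activating receptor Fcgr3 was 21.4-fold higher (adjusted p = 9.07e-09), the inhibitory receptor Fcgr2b differed by -3.80 (adjusted p = 3.23e-06) and the shared signalling chain Fcer1g was 18.9-fold higher (adjusted p = 0.00122). Activating and inhibitory receptors thus ran the same way, and both were low on every DC array. Fcgr3 and Fcgr4 are close relatives, so part of the signal of one may come from the other.

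The promoters of a complement and an Fc receptor gene are shown because members of both groups ran together and the sequence before each start holds a core motif of PU.1 and its ETS relatives, factors of the myeloid lineage. Sequences are the 250 bases before the RefSeq start, 5′ to 3′ on the gene's strand, in GRCm38.p6, and capitals mark motif matches on either strand: the PU.1 and ETS core AGGAAGT or its reverse complement, and in Fcgr4 also the interferon-stimulated response element core GAAANNGAA. Fcgr4 lies on the plus strand at chr1:171018676-171018925 and C1qb on the minus strand at chr4:136886201-136886450.
Fcgr4: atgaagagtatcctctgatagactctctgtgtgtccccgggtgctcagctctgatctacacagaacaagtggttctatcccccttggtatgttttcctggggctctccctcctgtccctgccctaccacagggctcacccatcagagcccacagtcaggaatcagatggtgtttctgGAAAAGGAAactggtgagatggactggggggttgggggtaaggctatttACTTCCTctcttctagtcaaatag
C1qb: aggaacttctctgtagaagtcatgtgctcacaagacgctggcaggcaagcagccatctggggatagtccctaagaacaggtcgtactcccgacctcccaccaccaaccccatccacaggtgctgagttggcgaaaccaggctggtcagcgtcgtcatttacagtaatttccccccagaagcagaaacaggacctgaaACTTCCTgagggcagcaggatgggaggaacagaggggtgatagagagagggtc
The ETS core lies at -24 to -18 from the start in Fcgr4 and at -53 to -47 in C1qb. Over all genes with a promoter in the table, 8.65% of 16990 held AGGAAGT, against 16.6% of the 331 matched genes higher in macrophages and 7.45% of the 255 matched genes higher in DCs. The interferon-stimulated core was held by 7.97%, 16.9% and 8.63% of the same sets. No test was made of these shares, and a match is a description of the letters, not of a bound site.

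Of 20 Toll-like receptors and their partners measured, 2 were higher in DCs, 6 were higher in macrophages and 12 did not pass, with a median of -1.58. The 2 higher in DCs were Tlr3 and Tlr11, described above. Tlr7, a sensor of single-stranded RNA, read -3.21, -3.09 and -3.00 in DCs and -0.06, -0.02 and 0.45 in macrophages (-3.22 ± 0.20, adjusted p = 1.10e-07), and Tlr8 differed by -3.07 ± 0.35 (adjusted p = 6.23e-05). Tlr2, the lipoprotein receptor, read -2.84, -2.66 and -1.82 in DCs and 1.21, 1.03 and 0.45 in macrophages (-3.33 ± 0.33, adjusted p = 1.71e-05). Tlr4, the endotoxin receptor, differed by -1.79 ± 0.51 and its partner Ly96 by -1.96 ± 0.55; neither passed, at adjusted p = 0.0828 and 0.0773. Tlr1 (-3.76 ± 0.90, adjusted p = 0.0306) and Tlr13 (-1.76 ± 0.43, adjusted p = 0.0351) passed, but both calls were lost without DC replicate 2 or without any 1 macrophage array, that of Tlr1 also without DC replicate 1 and that of Tlr13 also without DC replicate 3.

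Ly75, which encodes the DEC-205 receptor that delivers antigen for presentation by DCs, read 4.26, 4.00 and 4.02 in DCs and -0.30, -0.10 and -0.30 in macrophages, 20.1-fold higher in DCs (4.33 ± 0.13, adjusted p = 5.91e-11). Among 34 measured lectin and scavenger receptors, Ly75 and the fatty acid and thrombospondin receptor Cd36 were higher in DCs, 13 were higher in macrophages and 19 did not pass, with a median of -0.67. Msr1, the class A scavenger receptor, read -4.48, -4.65 and -4.19 in DCs and 0.30, 0.05 and 0.04 in macrophages (23.7-fold higher in macrophages, adjusted p = 2.26e-08).

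The fungal and mycobacterial lectins were on the macrophage side. Clec4n, which encodes dectin-2, was 32.7-fold higher in macrophages (-5.03 ± 0.28, adjusted p = 3.94e-08), Clec4e, which encodes Mincle, 14.1-fold (-3.81 ± 0.49, adjusted p = 0.000198), Clec4d 9.72-fold (-3.28 ± 0.35, adjusted p = 3.56e-05) and Clec7a, the β-glucan receptor dectin-1, 3.83-fold (-1.94 ± 0.24, adjusted p = 0.000165). Clec4a3 differed by -5.12 ± 0.33 (adjusted p = 1.39e-07), while its neighbour in the family Clec4a2 read -3.15, -2.45 and -3.04 in DCs and -2.02, 0.78 and 0.64 in macrophages and did not pass (-2.68 ± 0.81, adjusted p = 0.108). The Clec4a genes are near copies of each other, so their single values are uncertain.

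Of 30 chemokine ligands, 14 were higher in macrophages and 16 did not pass, with a median of -0.91. Ccl24, an attractant of eosinophils, read -3.52, -3.14 and -2.96 in DCs and 2.77, 2.33 and 2.07 in macrophages (48.3-fold, -5.59 ± 0.68, adjusted p = 0.000122). Unlike most genes of this kind, it lay well above the 18-array median in these macrophages. Pf4, platelet factor 4, differed by -4.46 ± 0.28 (adjusted p = 1.10e-07), the monocyte attractant Ccl7 by -4.10 ± 0.38 (adjusted p = 7.24e-06) and the neutrophil attractant Cxcl1 by -3.30 ± 0.40 (adjusted p = 0.000116). Cxcl16 differed least among those that passed, by -1.27 ± 0.15 (adjusted p = 0.000112). Ccl2 (-2.67 ± 0.64, adjusted p = 0.0319) lost its call without DC replicate 2 or 3 or macrophage replicate 1 or 2, and so did Ccl4 and Ccl8. Ccl22, a ligand made by mature DCs, read 1.83, 1.05 and 0.99 in DCs and -0.33, 0.20 and -0.83 in macrophages and did not pass (1.61 ± 0.64, adjusted p = 0.264). CC ligands such as Ccl2, Ccl7 and Ccl12 are similar in sequence, so their shares of the signal are uncertain.

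Among 27 chemokine receptors, Xcr1 was higher in DCs, 5 were higher in macrophages and 21 did not pass, with a median of -0.05. Ccr1, a receptor for inflammatory CC chemokines, read -4.32, -3.59 and -3.68 in DCs and 0.20, 0.14 and 0.53 in macrophages (17.8-fold, adjusted p = 2.26e-08). Cxcr4, the receptor for Cxcl12, differed by -1.93 ± 0.17 (adjusted p = 4.04e-06) and the chemerin receptor Cmklr1 by -3.05 ± 0.34 (adjusted p = 4.47e-05). Ccr7, which takes DCs to lymph nodes, read -1.59, 0.98 and 0.56 in DCs and -0.35, 0.72 and -0.77 in macrophages, so the groups overlapped (0.12 ± 0.86, adjusted p = 0.984). The monocyte receptor gene Ccr2 read 0.41, -0.35 and 0.13 in DCs and 1.79, 1.46 and 1.55 in macrophages and did not pass (-1.54 ± 0.57, adjusted p = 0.216).

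Of 30 inflammatory response genes, 11 were higher in macrophages and 19 did not pass (median -1.11). Of 25 negative regulators, 10 were higher in macrophages, 2 were higher in DCs and 13 did not pass (median -1.36). Ptgs2, the inducible cyclooxygenase, read -4.71, -3.53 and -3.93 in DCs and 0.23, 0.46 and 0.60 in macrophages (22.4-fold, adjusted p = 2.74e-06). Il1b read -2.15, -1.72 and -1.99 in DCs and 0.41, 0.37 and 0.03 in macrophages (4.67-fold, adjusted p = 0.00728), and Tnf, tumour necrosis factor, was 4.05-fold higher (-2.02 ± 0.35, adjusted p = 0.00324). Il1rn, the interleukin 1 receptor antagonist, was 19.8-fold higher (-4.30 ± 0.34, adjusted p = 1.53e-06) and Il18bp, which binds interleukin 18, was 16.6-fold higher (-4.06 ± 0.28, adjusted p = 3.52e-07). The agonists Il1b and Tnf and the antagonists Il1rn, Il18bp and Il10 were thus all higher in macrophages, with larger fitted differences for the antagonists, which were not tested against each other.

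Inhibitory receptors on the macrophage side were Siglece, a sialic acid lectin (-4.11 ± 0.33, adjusted p = 1.69e-06), and Pilra (-3.93 ± 0.33, adjusted p = 2.80e-06). The 2 negative regulators higher in DCs were the nuclear receptors Nr4a2 (3.41 ± 0.73, adjusted p = 0.0144) and Nr4a1 (0.84 ± 0.19, adjusted p = 0.0243). Nr4a2 read 2.93, 2.93 and 2.88 in DCs and -2.34, 0.19 and 0.68 in macrophages, so macrophage replicate 1 stood apart, and the call was lost without that array or without DC replicate 2. Nr4a1 lost its call without any 1 of the 3 DC arrays or without macrophage replicate 1 or 2. Among 31 cytokines and receptors, 11 were higher in macrophages, 1 was higher in DCs and 19 did not pass (median -1.19). The 1 higher in DCs was Il12b, the shared chain of interleukins 12 and 23 (1.47 ± 0.35, adjusted p = 0.0319), whose call was lost without any 1 DC array or without macrophage replicate 1. Il1a (-1.46 ± 0.36, adjusted p = 0.0390) was the gene that passed with overlapping groups, at -2.27, -0.50 and -1.62 in DCs and 0.11, -0.60 and 0.50 in macrophages, and its call was lost without replicate 1 or 3 of either population.

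Type I interferon-stimulated genes were mixed: of 25, 4 were higher in macrophages, 2 were higher in DCs and 19 did not pass (median -0.71). Isg15, a ubiquitin-like antiviral protein, read -4.61, -2.89 and -2.81 in DCs and 0.10, 0.83 and 0.73 in macrophages (-3.99 ± 0.52, adjusted p = 0.000248). Members of the same DNA-sensor family went opposite ways, Ifi204 at -2.89 ± 0.55 (adjusted p = 0.00572) and Ifi205 at 3.48 ± 0.72 (adjusted p = 0.0120). The Ifi205 call was lost without DC replicate 1 or macrophage replicate 1 or 2, that of Ifi204 when only the 6 arrays were fitted, and these genes are similar in sequence.

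Of 29 genes by which apoptotic cells are recognised and engulfed, 5 were higher in macrophages, 2 were higher in DCs and 22 did not pass (median -0.16). Axl, a receptor tyrosine kinase that binds phosphatidylserine through Gas6, read -3.83, -3.28 and -3.99 in DCs and -0.06, 0.06 and 0.13 in macrophages (13.4-fold, adjusted p = 4.10e-05). Itgb5, a subunit of an integrin for apoptotic cells, differed by -4.49 ± 0.22 (adjusted p = 1.45e-08) and Thbs1, the bridging protein thrombospondin 1, by -4.55 ± 0.35 (adjusted p = 1.30e-06). Cd36 read 1.13, 1.28 and 1.12 in DCs and -2.40, -1.25 and -0.34 in macrophages, 5.70-fold higher in DCs (adjusted p = 0.00351, not passed when only the 6 arrays were fitted). Anxa1, annexin A1, was 7.65-fold higher in DCs (2.94 ± 0.31, adjusted p = 3.02e-05). Uptake receptors were therefore found on both sides, with Cd36 on the DC side and Axl, Mertk and Itgb5 on the macrophage side.

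Of 34 lysosomal genes, 12 passed as higher in macrophages, 22 did not pass, 30 had a difference below 0, and the median was -1.12. Ctsd, the aspartic protease cathepsin D, read -5.42, -4.46 and -4.24 in DCs and 0.16, -0.12 and -0.44 in macrophages (23.8-fold, -4.57 ± 0.29, adjusted p = 1.47e-07). The cysteine proteases were graded, with Ctsl 12.9-fold higher in macrophages (-3.69 ± 0.30, adjusted p = 2.06e-06), Ctsb 7.29-fold (-2.87 ± 0.25, adjusted p = 3.69e-06) and Ctss, which trims the MHC class II invariant chain, 2.32-fold (-1.22 ± 0.19, adjusted p = 0.00104, not passed when only the 6 arrays were fitted). The membrane glycoprotein Lamp1 differed by -2.40 ± 0.22 (adjusted p = 7.63e-06) and Lamp2 by -1.13 ± 0.18 (adjusted p = 0.00177). Tfeb, the transcription factor of lysosomal genes, differed by -0.48 ± 0.19 and did not pass (adjusted p = 0.241). Of the proton pump, Atp6v0d1 (-1.31 ± 0.45, adjusted p = 0.167) and Atp6v1a (-1.32 ± 0.54, adjusted p = 0.287) did not pass.

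The promoter of Ctsd is shown because it holds TCACGTGA, the E-box of the CLEAR element bound by Tfeb, here in capitals at -99 to -92. It lies on the minus strand at chr7:142387828-142388077 of GRCm38.p6 (RefSeq).
Ctsd: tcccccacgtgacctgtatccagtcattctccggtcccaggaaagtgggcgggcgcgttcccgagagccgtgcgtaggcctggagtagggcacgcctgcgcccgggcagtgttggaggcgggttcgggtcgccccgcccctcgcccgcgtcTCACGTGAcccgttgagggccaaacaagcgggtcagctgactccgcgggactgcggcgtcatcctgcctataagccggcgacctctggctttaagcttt
These letters were in 1.18% of all promoters, in 5 of the 331 genes higher in macrophages (1.51%) and in 1 of the 255 higher in DCs (0.392%).

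Of 27 cholesterol and lipid genes, 10 were higher in macrophages, 2 were higher in DCs and 15 did not pass (median -0.61). The sterol-sensing nuclear receptor Nr1h3 (LXRα) read -2.58, -2.56 and -2.35 in DCs and 1.00, 0.41 and 0.45 in macrophages (-3.12 ± 0.33, adjusted p = 2.68e-05). Of genes known to respond to it, 3 that passed ran the same way. They were the cholesterol exporter Abca1 at -2.94 ± 0.33 (adjusted p = 5.62e-05), Apoe at -3.49 ± 0.42 (adjusted p = 0.000113) and the phospholipid transfer protein Pltp at -4.01 ± 0.35 (adjusted p = 4.70e-06). Abcg1, another such gene, was at -1.30 ± 0.57 and did not pass (adjusted p = 0.34). The 2 higher in DCs were Cd36, described above, and Sqle. Sqle, an enzyme of cholesterol synthesis, was higher in DCs by 1.56 ± 0.37 (adjusted p = 0.0271), a call lost without any 1 DC array or without macrophage replicate 1 or 2. Its pathway partners Fdps (1.81 ± 0.52, adjusted p = 0.0895) and Hmgcs1 (1.87 ± 0.71, adjusted p = 0.234) did not pass.

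Iron and haem genes gave 5 of 20 higher in macrophages and 15 that did not pass (median -0.81). Hmox1, haem oxygenase, read -4.78, -2.97 and -2.66 in DCs and -0.17, 0.13 and 0.04 in macrophages (11.1-fold, adjusted p = 0.000285), Blvrb, which reduces biliverdin, was 8.04-fold higher (adjusted p = 5.62e-05) and the ferritin heavy chain Fth1 1.68-fold (-0.75 ± 0.11, adjusted p = 0.000707). Fth1 no longer passed when only the more variable genes were tested. Slc11a1, the phagosomal metal transporter, differed by -2.75 ± 0.50 (adjusted p = 0.00478). Tfrc, the transferrin receptor, read 1.44, 1.03 and 0.71 in DCs and -2.05, -0.43 and 0.01 in macrophages and did not pass (1.88 ± 0.80, adjusted p = 0.318).

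Of 13 genes of MHC class II presentation, 1 was higher in DCs, 1 was higher in macrophages and 11 did not pass, with a median of -0.12. H2-Ab1 read -0.01, 0.04 and -0.02 in DCs and 0.11, -0.04 and 0.05 in macrophages, and H2-Aa differed by -0.17 ± 0.11 (adjusted p = 0.582). MHCII was part of both gates. H2-Ob, a chain of the H2-O protein that restrains peptide loading, read 2.39, 2.75 and 3.46 in DCs and -1.61, 0.02 and -0.11 in macrophages (10.8-fold higher in DCs, adjusted p = 0.000591), and its partner H2-Oa differed by 1.78 ± 0.55 without passing (adjusted p = 0.117). For MHC class I, Wdfy4 and the immunoproteasome subunit Psmb9 (1.20 ± 0.17, adjusted p = 0.000520, not passed after quantile normalization) were higher in DCs and 18 of 20 genes did not pass (median 0.28), among them the peptide transporter Tap1 (0.97 ± 0.28, adjusted p = 0.0838) and B2m (-0.01 ± 0.09, adjusted p = 0.982).

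Costimulatory and checkpoint genes were mixed, with 2 of 25 higher in DCs (Btla and Slamf7), 4 higher in macrophages and 19 that did not pass (median -0.26). Cd40, which receives help from T cells, read -3.20, -2.64 and -2.27 in DCs and 0.03, 0.21 and 0.11 in macrophages (7.07-fold higher in macrophages, adjusted p = 0.00794). Vsir, the inhibitory ligand VISTA, differed by -2.95 ± 0.38 (adjusted p = 0.000241, not passed when only the 6 arrays were fitted) and Lgals9, galectin 9, by -3.30 ± 0.33 (adjusted p = 1.51e-05). Cd86 (0.32 ± 0.35, adjusted p = 0.815) and Cd80 (-0.88 ± 0.47, adjusted p = 0.483) did not pass, and the groups overlapped for both.

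Genes of mature, migrating DCs were mixed: 2 of 24 were higher in DCs, 1 was higher in macrophages and 21 did not pass (median 0.20), while 3.30% of all genes passed. Of the 24 differences, 14 were above 0 and 10 below. An unadjusted limma p under 0.05 was reached by 9 of the 24, against 12.9% of all genes tested. Fscn1, which bundles actin in mature DCs, read 3.15, 1.99 and 1.97 in DCs and -0.55, -0.60 and -0.20 in macrophages (2.82 ± 0.32, adjusted p = 5.62e-05). Relb, a factor of DC maturation, differed by 0.27 ± 0.30 (adjusted p = 0.821).

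Retinoic acid and TGF-β genes gave 2 of 31 higher in DCs, 2 higher in macrophages and 27 that did not pass (median -0.11). Aldh1a2, which makes retinoic acid from retinal and lets gut DCs imprint gut homing on T cells, read 3.53, 3.28 and 3.56 in DCs and -0.67, 0.48 and -0.42 in macrophages (12.6-fold, 3.66 ± 0.33, adjusted p = 6.02e-06). Cyp26b1, which degrades retinoic acid, read 2.44, 3.69 and 3.36 in DCs and -0.20, -0.02 and -0.13 in macrophages (9.74-fold, 3.28 ± 0.25, adjusted p = 1.12e-06). Dhrs3, which turns retinal back to retinol, was 9.31-fold higher in macrophages (-3.22 ± 0.41, adjusted p = 0.00017), as was Tgfbi, a matrix protein induced by TGF-β (-4.38 ± 0.63, adjusted p = 0.000628). Those that did not pass included the other retinal dehydrogenases Aldh1a1 (adjusted p = 0.881) and Aldh1a3 (adjusted p = 0.721), and Itgb8, the integrin chain that activates TGF-β (0.06 ± 0.66, adjusted p = 0.988).

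Lineage transcription factors passed in 8 of 37 cases, 3 higher in DCs and 5 higher in macrophages, with a median of -0.03. Bcl6, a repressor needed for type 1 DCs, read between 1.47 and 1.95 in DCs and -2.14, -0.70 and -1.06 in macrophages (2.93 ± 0.56, adjusted p = 0.00642). Cebpb read -4.64, -3.03 and -3.76 in DCs and -0.27, 0.02 and 0.38 in macrophages (14.5-fold higher in macrophages, adjusted p = 0.00108), and its relative Cebpa was 12.8-fold higher (adjusted p = 0.00407). Maf, which drives Il10 and C1q expression in macrophages, differed by -2.97 ± 0.46 (adjusted p = 0.00119) and Tfec, of the Mitf family, by -3.72 ± 0.49 (adjusted p = 0.000244). Spi1, which encodes PU.1, differed by -0.54 ± 0.35 (adjusted p = 0.607) and Spic by -1.37 ± 0.47 (adjusted p = 0.176).

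Of 12 receptors for growth factors and TNF family cytokines, Flt3 and Kit were higher in DCs, 3 were higher in macrophages and 7 did not pass. The 3 were Csf1r, the granulocyte factor receptor Csf3r (-3.18 ± 0.30, adjusted p = 1.07e-05) and Tnfrsf1b, a receptor for tumour necrosis factor (-1.72 ± 0.43, adjusted p = 0.0411). The Tnfrsf1b call was lost without replicate 1 or 3 of either population.

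Among mitosis and DNA replication genes, 5 of 29 passed as higher in DCs, 24 did not pass, 27 had a difference above 0, and the median was 0.79. Mki67, a protein of dividing cells, read 1.53, 1.34 and 1.28 in DCs and -2.42, -1.71 and -0.38 in macrophages (7.40-fold, adjusted p = 0.00341). Rrm2, a subunit of ribonucleotide reductase, differed by 1.55 ± 0.27 (adjusted p = 0.00296) and the spindle motor Kif11 by 1.92 ± 0.36 (adjusted p = 0.00570). Cenpe (1.69 ± 0.35, adjusted p = 0.0120) lost its call without macrophage replicate 1, and Bub1 (1.17 ± 0.28, adjusted p = 0.0323) without DC replicate 2 or 3 or any 1 macrophage array. Cdk1 read 2.26, 1.36 and 1.81 in DCs and -0.74, -0.30 and -0.56 in macrophages without overlap and did not pass (2.35 ± 0.61, adjusted p = 0.0530), and Top2a differed by 1.58 ± 0.54 (adjusted p = 0.170).

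An unadjusted p under 0.05 was reached by 12.9% of all genes tested, the share beside which the lists of basic cell functions stand. Of 24 nuclear genes of the respiratory chain, limma called 0, with 1 at an unadjusted p under 0.05 and a median of 0.00. Of 28 ribosomal protein genes it called 0, with 2 at an unadjusted p under 0.05 and a median of 0.04. Of 21 genes of protein folding in the endoplasmic reticulum it called 0, with 5 at an unadjusted p under 0.05, 15 differences above 0 and a median of 0.44. In glycolysis, 1 of 18 genes passed: Pfkp, the platelet-type phosphofructokinase, read 2.01, 2.36 and 2.19 in DCs and -0.45, -0.75 and 0.44 in macrophages (2.44 ± 0.54, adjusted p = 0.0183), a call lost without DC replicate 2 or 3 or macrophage replicate 1 or 2.

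**Figure D3:**
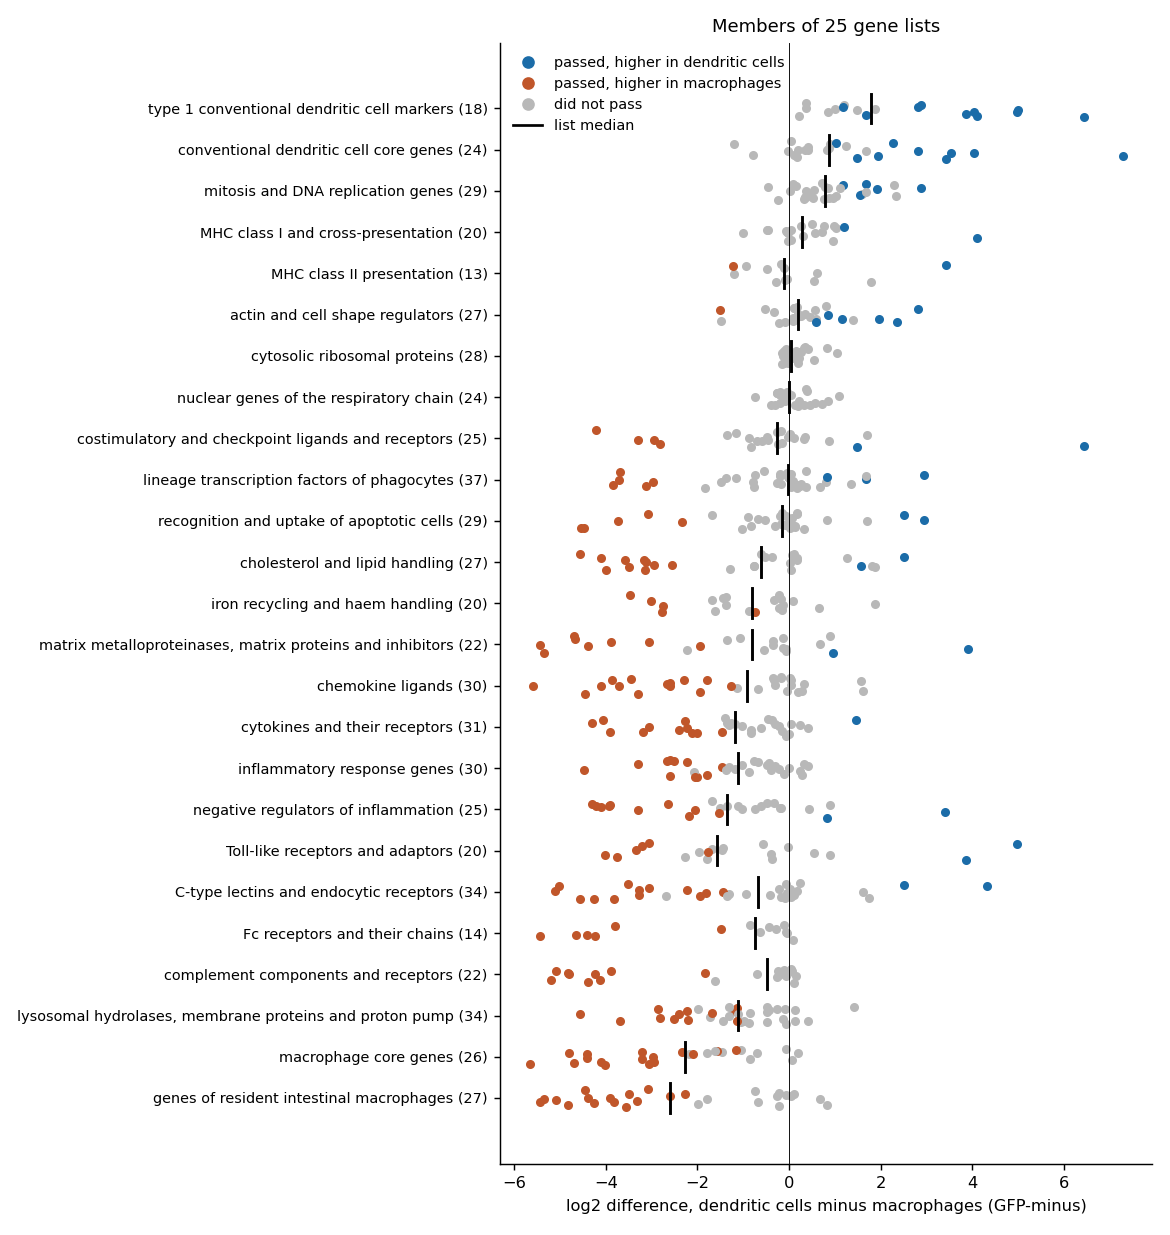
Difference in log2 signal, DCs minus macrophages in the GFP-minus gate (horizontal axis), for every measured member of 25 gene lists, with the number measured in brackets and the list median as a bar. The list of type 1 DC markers has its median at 1.78 and those of macrophage core and resident macrophage genes at -2.27 and -2.61, while respiratory chain and ribosomal genes lie close to 0.

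Of 22 genes that act on the matrix, 8 were higher in macrophages, 2 were higher in DCs and 12 did not pass (median -0.80). Mmp9, a gelatinase, read -5.08, -5.16 and -5.28 in DCs and 0.40, -0.06 and 0.45 in macrophages (43.2-fold, adjusted p = 5.97e-09). The urokinase Plau and its receptor Plaur were 20.9-fold and 26.1-fold higher (adjusted p = 1.43e-06 and 2.27e-05), the collagenase Mmp13 25.4-fold (adjusted p = 7.22e-06) and the membrane-bound Mmp14 14.8-fold (adjusted p = 9.17e-05). Adam8, a membrane-anchored metalloprotease, went the other way and read 3.16, 3.34 and 3.35 in DCs and -1.36, -0.82 and 0.30 in macrophages (15.1-fold higher in DCs, adjusted p = 3.15e-05). The protease inhibitor Cst3, cystatin C, was 1.94-fold higher in DCs (0.95 ± 0.15, adjusted p = 0.00161), which did not pass after quantile normalization.

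Eicosanoid genes gave 6 of 26 higher in macrophages and 20 that did not pass (median -0.21). Beside Ptgs2 these included Hpgd, which inactivates prostaglandins (-2.77 ± 0.20, adjusted p = 4.35e-07), and Pla2g7, which breaks down platelet-activating factor and read between -4.0 and -3.59 in DCs and 0.16, 0.28 and 0.49 in macrophages (16.8-fold, adjusted p = 1.46e-08). The receptor for the same mediator, Ptafr, differed by -3.30 ± 0.66 (adjusted p = 0.00905), a call lost without DC replicate 1. The list of purinergic receptors and nucleotide-clearing enzymes gave 3 of 14 higher in macrophages (P2ry13, P2rx4 and P2rx7, at -3.84, -3.33 and -2.55), 1 higher in DCs and 10 that did not pass. The 1 higher in DCs was P2ry10, the lysophospholipid receptor described above.

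The MS4A membrane proteins gave 6 of 14 higher in macrophages and 8 that did not pass (median -0.55). Ms4a7 read -4.04, -4.03 and -3.41 in DCs and -0.07, 0.12 and -0.04 in macrophages (14.2-fold, adjusted p = 2.90e-09) and Ms4a6d was 15.6-fold higher (adjusted p = 4.71e-07). Ms4a6b and Ms4a6c also passed, but not when only the 6 arrays were fitted, and the Ms4a6c call was lost without any 1 macrophage array; signal may be shared within this family.

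Regulators of actin and cell shape gave 6 of 27 higher in DCs, 1 higher in macrophages and 20 that did not pass (median 0.20). Besides Fscn1 these were the leukocyte actin-binding protein Lsp1 (2.35 ± 0.34, adjusted p = 0.000667), the Arp2/3 subunit Arpc2 (0.84 ± 0.13, adjusted p = 0.0014), the myosin Myo9a (1.96 ± 0.34, adjusted p = 0.00311), gelsolin, Gsn (1.15 ± 0.24, adjusted p = 0.0132), and plastin, Lcp1 (0.59 ± 0.15, adjusted p = 0.0480). Arpc2 and Myo9a did not pass when only the 6 arrays were fitted. Gsn lost its call without DC replicate 3 or macrophage replicate 1, and Lcp1 without any 1 DC array or macrophage replicate 1 or 2. Of integrins outside the gate, Itgb7, the partner of CD103 (1.35 ± 0.34, adjusted p = 0.0410), and Itga4 (2.22 ± 0.56, adjusted p = 0.0446) were higher in DCs and Itga9 (-3.03 ± 0.36, adjusted p = 8.18e-05) was higher in macrophages. Itgb7 lost its call without any 1 of the 6 arrays, and Itga4 without any 1 of them but macrophage replicate 3.

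The largest difference of all was that of Rab30, 1 of the 24 measured genes shared by conventional DCs. The largest differences were not limited to the markers described above. The 15 largest towards DCs ran from 4.68 to 7.29. Rab30, a small GTPase of the Golgi, read 7.23, 7.60 and 6.63 in DCs and 0.54, -0.57 and -0.37 in macrophages (7.29 ± 1.06, 156-fold, adjusted p = 0.000666). Actn1, the actin cross-linker α-actinin 1, read 5.59, 5.79 and 5.72 in DCs and -0.06, -0.22 and -0.08 in macrophages (56.6-fold, adjusted p = 4.66e-06). Gpr33, an orphan receptor of the chemoattractant type, read 4.97, 4.94 and 5.58 in DCs and -0.43, -0.16 and -0.06 in macrophages (41.7-fold, adjusted p = 5.99e-09). For each of these genes the DC arrays lay at least 5 log2 units above all macrophage arrays.

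Others of the 15 were the protease inhibitor Serpinb6b (46.8-fold, adjusted p = 9.77e-06), the orphan receptor Gpr141b (37.6-fold, adjusted p = 2.26e-08), the lipid phosphatase Plpp1 (37.9-fold, adjusted p = 0.00311), the kinase Lrrk2 (32.8-fold, adjusted p = 2.58e-07), the Ras exchange factor Rasgrp3 (31.5-fold, adjusted p = 5.37e-08), the surface protein Plet1 (25.6-fold, adjusted p = 0.00566) and E330020D12Rik (26.2-fold, adjusted p = 0.00697). Plet1 differed on both sides of the median, at 2.23, 2.25 and 2.37 in DCs and -2.83, -2.54 and -1.81 in macrophages.

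Btla and Rasgrp3 are shown as promoters of the DC side that hold the same ETS core as the macrophage genes Fcgr4 and C1qb shown above. Only that core is in capitals here. The Btla letters gaaagagaa, left in lower case, also match the interferon-stimulated core GAAANNGAA that is in capitals in Fcgr4. Btla lies on the plus strand at chr16:45224087-45224336, with the ETS core at -17 to -11. Rasgrp3 lies on the plus strand at chr17:75435655-75435904, with the ETS core at -49 to -43. Both are in GRCm38.p6 from RefSeq.
Btla: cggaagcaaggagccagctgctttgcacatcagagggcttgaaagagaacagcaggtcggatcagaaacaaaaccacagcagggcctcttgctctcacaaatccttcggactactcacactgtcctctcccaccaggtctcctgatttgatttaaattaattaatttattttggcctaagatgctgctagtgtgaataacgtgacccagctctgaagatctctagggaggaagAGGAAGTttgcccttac
Rasgrp3: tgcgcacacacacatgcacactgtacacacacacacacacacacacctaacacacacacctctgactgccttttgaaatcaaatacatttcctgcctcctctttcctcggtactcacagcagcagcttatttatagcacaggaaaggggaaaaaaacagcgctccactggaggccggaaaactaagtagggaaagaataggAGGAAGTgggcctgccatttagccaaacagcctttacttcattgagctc
The other motifs searched on both strands were less uneven. The AP-1 and BATF core TGANTCA was in 7.44% of all promoters, 5.88% of those of genes higher in DCs and 8.16% of those higher in macrophages, the C/EBP core TTGCNNAA in 10.4%, 10.6% and 13.6%, and the MAF half-site TGCTGAC in 4.16%, 2.75% and 3.93%. The mean GC content of these promoters was 55.3% over all genes, 60% for genes higher in DCs and 54.7% for those higher in macrophages.

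The 15 largest differences towards macrophages ran from -5.65 to -4.71. Tmem176b, a membrane protein of endosomes, read -5.33, -5.30 and -5.07 in DCs and 0.03, 0.43 and -0.02 in macrophages, and had the smallest adjusted p of these (-5.38 ± 0.15, adjusted p = 5.91e-11). Gbp2b, a guanylate-binding protein induced by interferon, was 32.3-fold higher in macrophages (adjusted p = 2.46e-08) and Klra2, a receptor of the Ly49 family, 27.5-fold (adjusted p = 2.58e-08). The other 12 were Csf1r, Ccl24, Fcgr4, Mmp9, Adamdec1, C3ar1, Clec4a3, C1qb, Clec4n, C1qa, C5ar1 and Plaur, described above.

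**Figure D4:**
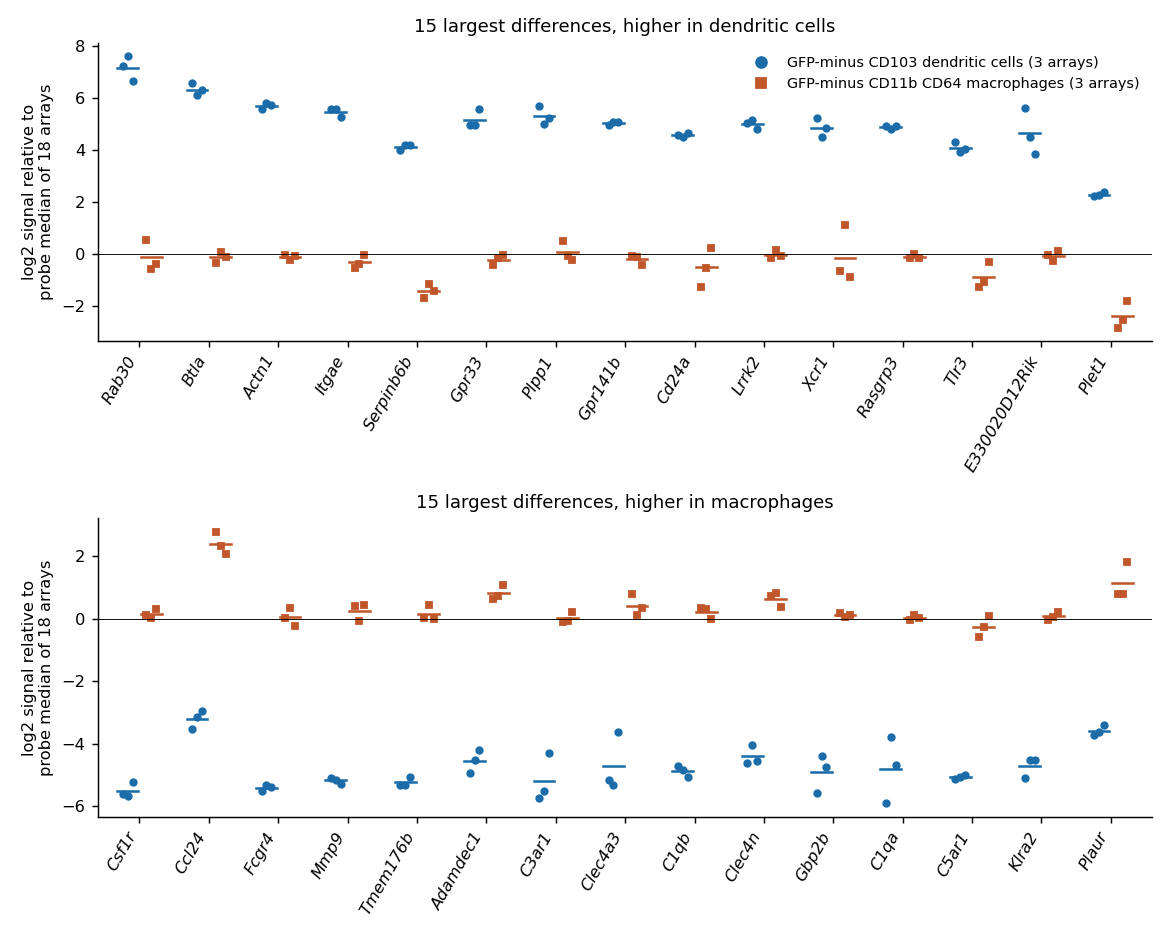
Signal on each of the 6 arrays, as log2 relative to the probe's median over 18 arrays (vertical axes), for the 15 largest differences in each direction among genes that passed and whose groups do not overlap. DC arrays are circles, macrophage arrays squares and bars group means; most genes sit near 0 in macrophages, while Ccl24 lies at 2.07 to 2.77 and Plet1 at -2.83 to -1.81 there.

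Markers of other cell types were read on the same arrays. For 19 markers of T and innate lymphocytes, the mean over the list was 0.24, 0.56 and 0.67 on the DC arrays and -0.18, 0.10 and -0.01 on the macrophage arrays, without overlap. The median difference of these 19 was 0.01, however, with 11 above 0 and 8 below, so a few genes carried the mean. Gzma, a granzyme (3.62 ± 0.47, adjusted p = 0.000226), and Cd8a, which many type 1 DCs also carry, passed as higher in DCs. The T cell receptor chains Cd3d (0.01 ± 0.58), Cd3g (0.42 ± 0.67) and Cd3e (1.27 ± 0.82) did not pass. For 14 markers of B and plasma cells the list mean overlapped between groups, at -0.03, -0.03 and -0.17 in DCs and 0.24, 0.04 and -0.22 in macrophages. Jchain, the joining chain of secreted antibody (3.17 ± 0.53, adjusted p = 0.00234), and Ighm, the IgM heavy chain (2.86 ± 0.44, adjusted p = 0.00106), were higher in DCs, while Cd79a (0.00 ± 0.27) and Mzb1 (0.20 ± 0.29) did not pass. The 7 probes of Ighm disagreed, with differences from -0.04 to 6.82. Prdm1, a transcriptional repressor used by plasma cells and also by macrophages, was higher in macrophages (-4.27 ± 0.31, adjusted p = 5.38e-07). The part of lymphocyte RNA in the differences of other genes was not tested.

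Monocyte markers had a list mean of -0.58, -0.06 and -0.08 on the DC arrays and 0.54, 0.53 and 1.06 on the macrophage arrays, with 3 of 12 higher in macrophages, led by Thbs1, and 9 that did not pass. Ly6c2, the defining surface antigen of inflammatory monocytes, differed by -1.06 ± 0.58 (adjusted p = 0.501), and the chitinase-like Chil3 read 0.27, 0.34 and 2.62 on the macrophage arrays, so only replicate 3 was high. The part of monocytes in the inflammatory and chemokine differences was not tested. Enterocyte markers were close in both populations, with list means over 31 of them of -0.18, 0.06 and -0.04 in DCs and -0.28, -0.12 and -0.18 in macrophages. For 21 markers of secretory epithelium the list mean was -0.15, -0.15 and -0.20 in DCs and 0.06, 0.05 and 0.10 in macrophages, without overlap. Of these 21, 1 was higher in macrophages and 20 did not pass. The 1 was Lyz1 at -3.52, whose signal may not be separable from that of Lyz2, and it weighs on the list mean. The median difference of the 21 was -0.09, with 8 above 0 and 13 below. Fabp1 (0.05 ± 0.71), Epcam (0.20 ± 0.19) and Krt8 (0.24 ± 0.17) did not pass, and the 1 enterocyte marker that passed, Anpep (2.27 ± 0.51, adjusted p = 0.0222, lost without any 1 DC array, with only the 6 arrays fitted and after quantile normalization), encodes CD13, which DCs also carry. Neutrophil markers S100a8 (-0.11 ± 0.74) and S100a9 (-0.01 ± 0.12), the plasmacytoid DC gene Siglech (0.10 ± 0.32), the mast cell gene Cpa3 (0.01 ± 0.21) and the stromal gene Col1a1 (-0.06 ± 0.18) did not pass. Their lists held some calls: 1 of 14 neutrophil and 1 of 10 plasmacytoid DC markers towards macrophages. Another was 1 of 16 eosinophil and mast cell markers towards DCs. The plasmacytoid list mean was -0.72, -0.31 and -0.52 in DCs and -0.08, -0.03 and 0.17 in macrophages. A single gene at -4.42 weighs on that mean, and the median difference of the list was -0.08. The neutrophil list mean was -0.10, -0.18 and -0.13 in DCs and 0.20, 0.05 and -0.09 in macrophages, with a lowest difference of -3.18 and a median of -0.10. The endothelial adhesion gene Pecam1, which macrophages also express, was higher in macrophages (-2.58 ± 0.44, adjusted p = 0.00241, not passed when only the 6 arrays were fitted).

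The same 2 populations were compared in the GFP-plus gate, on 6 other arrays. There 2096 genes passed, 435 higher in DCs (1.96%) and 1661 higher in macrophages (7.49%). After quantile normalization 1547 passed there, 676 of them higher in DCs. Of the 731 GFP-minus calls, 489 (66.9%) were called in the same direction in the GFP-plus gate, which is 23.3% of the GFP-plus calls. The share was 362 of 422 (85.8%) for genes higher in macrophages and 127 of 309 (41.1%) for genes higher in DCs. In the GFP-plus gate the differences of macrophage identity genes were Csf1r at -6.76, Adgre1 at -5.43 and C1qa at -6.51. Those of DC identity genes were Flt3 at 4.31, Xcr1 at 4.36 and Btla at 6.01. These genes do not stand for their lists. Over the 18 type 1 DC markers the GFP-plus median was 0.86, against 1.78 in the GFP-minus gate. Of these markers 9 passed as higher in DCs and 1 as higher in macrophages in the GFP-plus gate. The median of the 24 genes shared by conventional DCs was 1.26, against 0.88, and that of the 26 macrophage core genes -3.69, against -2.27. Another 9 genes passed in both gates in opposite directions: Ano6, Hmgn5, Hmmr, Nusap1, Rae1, Rnf20, Tmem43 and Trit1 were higher in DCs in the GFP-minus gate and lower in the GFP-plus gate, and Pga5 ran the other way. In the GFP-minus gate the calls of Hmmr, Nusap1 and Tmem43 held when any 1 array was left out, and that of Hmgn5 was lost when only the 6 arrays were fitted. The Ano6 call was lost without DC replicate 1 or 2 or macrophage replicate 1 or 2, that of Rnf20 without DC replicate 2 or macrophage replicate 1, that of Rae1 without any 1 of the 6 arrays, that of Pga5 without any 1 but macrophage replicate 1, and that of Trit1 without any 1 but macrophage replicate 3.

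The test of the difference between gates called 118 genes (0.532%), 48 of them among the 731 GFP-minus calls. The difference was more positive in the GFP-minus gate for 100 of the 118, against 17 of 33 after quantile normalization. Of these 48, 36 were higher in GFP-minus DCs and 12 in GFP-minus macrophages; 33 had the larger absolute difference in the GFP-minus gate and 15 in the GFP-plus gate. Dapk2, a death-associated kinase, read 4.20, 3.39 and 5.42 in GFP-minus DCs and 0.05, 0.50 and 0.02 in GFP-minus macrophages, a difference of 4.15 ± 0.35, against 0.29 in the GFP-plus gate (adjusted p of the difference between gates = 0.00448). Genes of DNA replication and mitosis in this set were Cdc45 (2.49 against -0.44, adjusted p = 0.00547), Nusap1 (2.24 against -1.66, adjusted p = 0.0100) and Haspin (3.51 against 0.34, adjusted p = 0.00302). Of the 29 listed mitosis and replication genes, 0 passed the limma test between gates, with 10 at an unadjusted p under 0.05, and 0 were called in the GFP-plus gate, with 7 at an unadjusted p under 0.05 and a median of -0.22. The shares of all genes tested at that p were 15.5% between gates and 22.6% in the GFP-plus gate.

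Gzma differed by 3.62 in the GFP-minus gate and -0.68 in the GFP-plus gate (adjusted p between gates = 0.0123), and Igkv6-14, an antibody light chain segment, by 2.91 and -0.67 (adjusted p = 0.0127). Of the 24 mature DC genes, 4 passed between gates (Ccl17, Fscn1, Il12b and Nudt17) and 20 did not. All 4 had a smaller difference in the GFP-minus gate, among them Fscn1 at 2.82 against 5.93 (adjusted p = 0.00719) and Il12b at 1.47 against 4.36 (adjusted p = 0.0200). The actin-binding Lsp1 was at 2.35 against 5.19 (adjusted p = 0.0200). On the macrophage side, Cybb, the catalytic chain of the phagocyte oxidase, was at -3.09 against -6.09 (adjusted p = 0.00610), Pla2g7 at -4.07 against -6.37 (adjusted p = 0.00358) and the tetraspanin Cd63 at -3.32 against -1.43 (adjusted p = 0.00514). The number of calls between gates depended on single arrays, with 57 without macrophage replicate 2, 60 without DC replicate 2, 71 without macrophage replicate 1, 73 without DC replicate 3, 224 without DC replicate 1 and 354 without macrophage replicate 3.

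**Figure D5:**
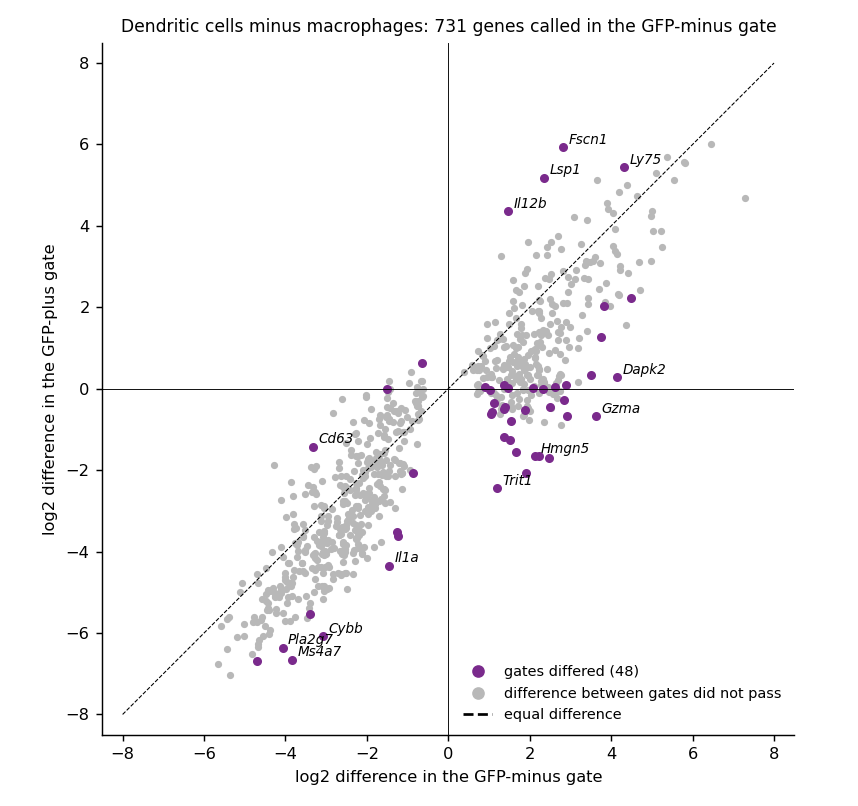
Difference in log2 signal between DCs and CD11b CD64 macrophages in the GFP-minus gate (horizontal axis) and in the GFP-plus gate (vertical axis) for the 731 genes called in the GFP-minus gate; the dashed line marks equal differences. The 48 genes whose difference itself depended on the gate are purple, with Trit1 at 1.21 and -2.45, Fscn1 at 2.82 and 5.93, and Ms4a7 at -3.83 and -6.65.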

How the data were processed

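RNA from sorted cells was hybridised to 18 microarrays, in 6 groups of 3. The deposited table holds log2 values for 33793 probes, which the authors had centred on each probe's median over the arrays; base 2 was inferred from the values (largest span of a probe 10.15), and the software and normalization behind them were not given in the sources. Absolute signal was lost, so no filter on dim probes was possible, and precision is set by the number of arrays. Array medians lay between -0.0377 and 0.0494. Probes with 1 symbol in the platform annotation (23521; 1814 had several, 8458 none) were averaged per gene, giving 22180 genes. Of those probes 23328 were matched to RefSeq by gene ID, with no symbol changed.

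In limma 3.58.1, all 18 arrays entered a single fit of the 6 group means (R 4.3.3; 12 residual and 2.089 prior degrees of freedom), with two-sided p-values adjusted by Benjamini-Hochberg over all genes and a threshold of 0.05. The procedure was tested on simulated data. Named genes are those of the sort gate, the 15 largest differences in each direction, up to 6 members with the smallest p of each of 48 lists with up to 4 that did not pass, and the 5 smallest p between gates. Igkv6-14, Dapk2, Haspin, Cdc45, Nusap1, Cybb and other genes named outside this rule were chosen after their values were seen. The comparison and the lists were chosen with earlier results of these data known. Deviations from the group means correlated weakly between same-numbered arrays of the 2 populations (r = 0.17, -0.00225 and 0.0791). Between differently numbered arrays r ran from -0.151 to 0.112. Numbers were not taken as pairs in the main fit, although these values do not exclude variation shared by number. Alternatives were other normalizations, array weights, subsets of arrays and genes, a replicate block and a test against a log2 difference of 1. Promoters of 16990 genes came from RefSeq (GRCm38.p6).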

Additional observations from a re-analysis of the deposited data

Results flagged for a closer look

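The difference between DCs and macrophages depended on the GFP gate in 118 genes by a test of that difference in limma. The 5 with the smallest p were Ms4a7 (GFP-minus minus GFP-plus difference 2.82), Trit1 (3.65), Gm3336 (2.07), Zfp367 (3.12) and Acadsb (2.70). Ms4a7 was higher in macrophages in both gates, by a log2 difference of -3.83 in the GFP-minus and -6.65 in the GFP-plus gate. Gm3336 and Zfp367 were higher in DCs in the GFP-minus gate, by 2.09 and 2.85, and lay at 0.02 and -0.27 in the GFP-plus gate. Trit1 was at 1.21 and -2.45, and Acadsb at 0.73, which did not pass, and -1.97.

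Among listed genes that were called in the GFP-minus gate, the difference was more positive in the GFP-minus than in the GFP-plus gate for Gzma (4.30), Gcsam (2.79), Haao (1.05) and Il1a (2.89). It was more negative for Fscn1 (-3.11), Il12b (-2.90), Lsp1 (-2.84) and Cd63 (-1.90). Gcsam, a germinal centre signalling protein used here as a type 1 DC marker, read 2.06, 3.62 and 3.32 in GFP-minus DCs and 0.29, 0.07 and -0.02 in GFP-minus macrophages, and its difference in the GFP-plus gate was 0.09. Haao, an enzyme of tryptophan breakdown, was at 1.02 and -0.02.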

How the results depend on the processing

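The 731 calls became 1236 with array weights and 253 when tested against a log2 difference of 1, and the number of GFP-plus calls fell from 2096 to 503 in that test. The 118 calls between gates became 33 after quantile normalization (17 positive), 438 with array weights, 196 with the replicate block and 2 against a log2 difference of 1, and ran from 57 to 354 with 1 array left out. The replicate block gave 826 calls between the GFP-minus populations (370 higher in DCs) and kept 696 of the 731. Other settings gave 626 to 860 calls, and leaving out 1 array gave 583 to 802. Fitting only the 6 arrays kept 484 of the 731. Quantile normalization gave 1547 GFP-plus calls, 676 of them higher in DCs, against 435 of 2096. Without macrophage replicate 1, the array of lowest weight among the 6, 538 of the 731 were kept. A set wider than the genes named in the text was followed through the settings. It held all measured members of the 48 lists, the 15 largest differences in each direction and genes picked from the comparison of gates. Of its 260 genes that passed, 182 passed under all settings but the test against a log2 difference of 1, which 111 did not pass. Of the same 260, fitting only the 6 arrays ended 53 calls, leaving out the 4 arrays of lowest weight 24 and quantile normalization 22. The fitted difference kept its sign for all 731 and all 118 calls under every setting that tested them; 2 of the 2096 GFP-plus calls changed sign after quantile normalization and did not pass there.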
